A study of Homo sapiens with 14 samples.

Results

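The 39 genes described here encode the enzymes that split glucose to lactate, the kinases that set the pace of that pathway, and genes known to respond to low oxygen. They were taken by symbol from a list, and all 39 were among the 13734 genes of the expression table, with 17 glycolytic enzymes, 4 glycolytic regulators, 15 hypoxia targets and 3 hypoxia factors. Messenger RNA was measured by total RNA sequencing in MDA-MB-231, an established human breast cancer cell line of the triple-negative, mesenchymal kind, grown in DMEM:F12 with 10% FBS. The 14 libraries form 7 groups of 2. Cells received a control small interfering RNA (siRNA), siRNA against YAP and TAZ as mix 1 or mix 2 (48 h), or siRNA against BET family genes, BRD2 among them, as mix A or mix B (72 h; called BRD siRNA), both targeting kinds with Lipofectamine RNAiMAX as the carrier. The other libraries came from cells given DMSO, a solvent, or JQ1 at 1 µM for 24 h. JQ1 blocks the bromodomains of the BET proteins, which bind acetylated chromatin, and YAP and TAZ (gene WWTR1) are coactivators that act at the end of the Hippo pathway. The labels give no time for the control siRNA or DMSO libraries and name no low-oxygen treatment, so the time after transfection and the siRNA cannot be told apart. The comparisons ask how loss of YAP and TAZ, knockdown of BET family genes, and BET inhibition each changed these genes. The labels do not say whether the 2 libraries of a group came from separate cultures, and p-values then measure only the spread between these libraries, which may be technical.

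Glycolysis converts glucose to pyruvate and adenosine triphosphate in the cytosol, and lactate dehydrogenase turns pyruvate into lactate; many cancer cells, MDA-MB-231 among them, run this pathway at a high rate even in oxygen. When oxygen is low, the prolyl hydroxylases EGLN1 and EGLN3 no longer mark the alpha subunits HIF1A and EPAS1 (HIF-2α) for destruction, and these pair with ARNT and bind the core sequence ACGTG or GCGTG near their target genes. The targets include most glycolytic enzymes as well as genes for blood vessel growth, pH control, mitophagy and collagen maturation. HIF control acts mainly on the stability of the alpha subunits, which messenger RNA levels do not show.

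The libraries held between 15741695 and 37311326 reads in genes (median 23539829), recovered from the table as whole numbers. Values are given in scaled RPM, reads relative to a library size that the authors adjusted by a factor of 0.911 to 1.11. A single read was worth 0.0276 to 0.0602 scaled RPM. Both targeted genes given here followed their labels: YAP1 went from 182 ± 11.4 (SD, n = 2) in control siRNA libraries to 21.6 ± 2.35 (SD, n = 4) after YAP/TAZ siRNA, and BRD2 from 252 ± 0.520 (SD, n = 2) to 175 ± 21.6 (SD, n = 4) after BRD siRNA. All 6 mesenchymal and basal markers of the cell line looked for (VIM, CD44, EGFR, CAV1, AXL, MSN) were in the table, with a summed level of 4579 to 10830 over the libraries, and of 8 luminal markers the defining genes ESR1, PGR and CDH1 were not analysed here. Every member entered the test, and only CA9 and EGLN3 lay under 1 scaled RPM in some library, CA9 at 4 to 142 reads and EGLN3 at 30 to 142 reads.

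RefSeq promoter windows on GRCh38.p14 were matched for 36 of the 39 genes (ERO1L under its current symbol ERO1A), leaving NDRG1, VEGFA and BNIP3L without one. The 250 bases before each start site were searched on both strands for ACGTG and GCGTG, the core of the hypoxia response element, and matches that overlap were counted once. A match lay in 36 of the 59 windows of the members (61.0%) and in 15172 of all 35116 windows (43.2%). Counted by gene, any window held a match for 30 of 36 members (83.3%) and for 47.4% of all 27305 genes. The latter are all RefSeq genes and not only those tested here. The members had more windows per gene on average, which raises a count over any window. Many members were also listed because they respond to low oxygen, so these shares are only a description. By role this was 14 of 17 enzymes, 4 of 4 regulators, 10 of 12 targets and 2 of 3 factors; PGAM1, PKM, LDHB, EGLN3, P4HA2 and ARNT had no match in these windows. A match describes letters and not a bound site. The 6 windows below belong to PFKFB4, P4HA1 and PLOD2, which moved in opposite ways with the 2 YAP/TAZ siRNA mixes, to BNIP3 and ALDOC, which rose in all 3 main comparisons, and to CA9, which did not; they are shown to let the letters be read beside the values, and no link between a match and a change was tested. They are read 5′ to 3′ along the gene's own strand, all on the minus strand except CA9, and capitals mark the matches.
PFKFB4 (chr3:48556804-48557053): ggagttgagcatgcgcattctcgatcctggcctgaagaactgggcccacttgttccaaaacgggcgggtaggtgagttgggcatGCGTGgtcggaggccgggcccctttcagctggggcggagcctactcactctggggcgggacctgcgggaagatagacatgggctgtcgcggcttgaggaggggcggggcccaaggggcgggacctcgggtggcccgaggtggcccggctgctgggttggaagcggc
P4HA1 (chr10:73096867-73097116): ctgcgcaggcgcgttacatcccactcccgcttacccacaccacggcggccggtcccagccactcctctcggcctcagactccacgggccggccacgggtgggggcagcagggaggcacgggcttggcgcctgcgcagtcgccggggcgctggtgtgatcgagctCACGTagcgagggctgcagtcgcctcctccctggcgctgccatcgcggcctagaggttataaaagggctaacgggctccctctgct
PLOD2 (chr3:146161185-146161434): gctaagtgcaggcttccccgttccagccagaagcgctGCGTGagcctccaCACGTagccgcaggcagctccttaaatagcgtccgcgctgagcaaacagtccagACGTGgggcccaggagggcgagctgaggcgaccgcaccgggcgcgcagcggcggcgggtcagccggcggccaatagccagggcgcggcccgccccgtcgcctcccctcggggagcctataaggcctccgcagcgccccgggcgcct
BNIP3 (chr10:131981924-131982173): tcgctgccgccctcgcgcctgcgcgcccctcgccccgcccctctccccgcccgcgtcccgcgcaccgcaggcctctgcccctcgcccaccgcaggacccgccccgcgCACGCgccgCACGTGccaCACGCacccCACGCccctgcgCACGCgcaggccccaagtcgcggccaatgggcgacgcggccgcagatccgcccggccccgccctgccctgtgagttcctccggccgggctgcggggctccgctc
ALDOC (chr17:28576896-28577145): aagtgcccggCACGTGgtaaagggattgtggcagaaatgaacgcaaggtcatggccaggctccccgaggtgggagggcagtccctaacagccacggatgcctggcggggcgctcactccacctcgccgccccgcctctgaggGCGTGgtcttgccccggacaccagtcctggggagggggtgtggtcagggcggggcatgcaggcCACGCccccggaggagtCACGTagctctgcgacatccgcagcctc
CA9 (chr9:35673678-35673927): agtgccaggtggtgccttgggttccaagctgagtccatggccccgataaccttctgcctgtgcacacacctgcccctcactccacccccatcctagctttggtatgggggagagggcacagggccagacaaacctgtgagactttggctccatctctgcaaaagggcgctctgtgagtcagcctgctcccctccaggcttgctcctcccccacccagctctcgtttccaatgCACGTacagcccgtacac
BNIP3 had the most matches, 5, and those of ALDOC numbered 4 and of PLOD2 3, against 1 each in PFKFB4, P4HA1 and CA9. The single match of CA9 lay 18 bases before the start site.

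**Figure D1:**
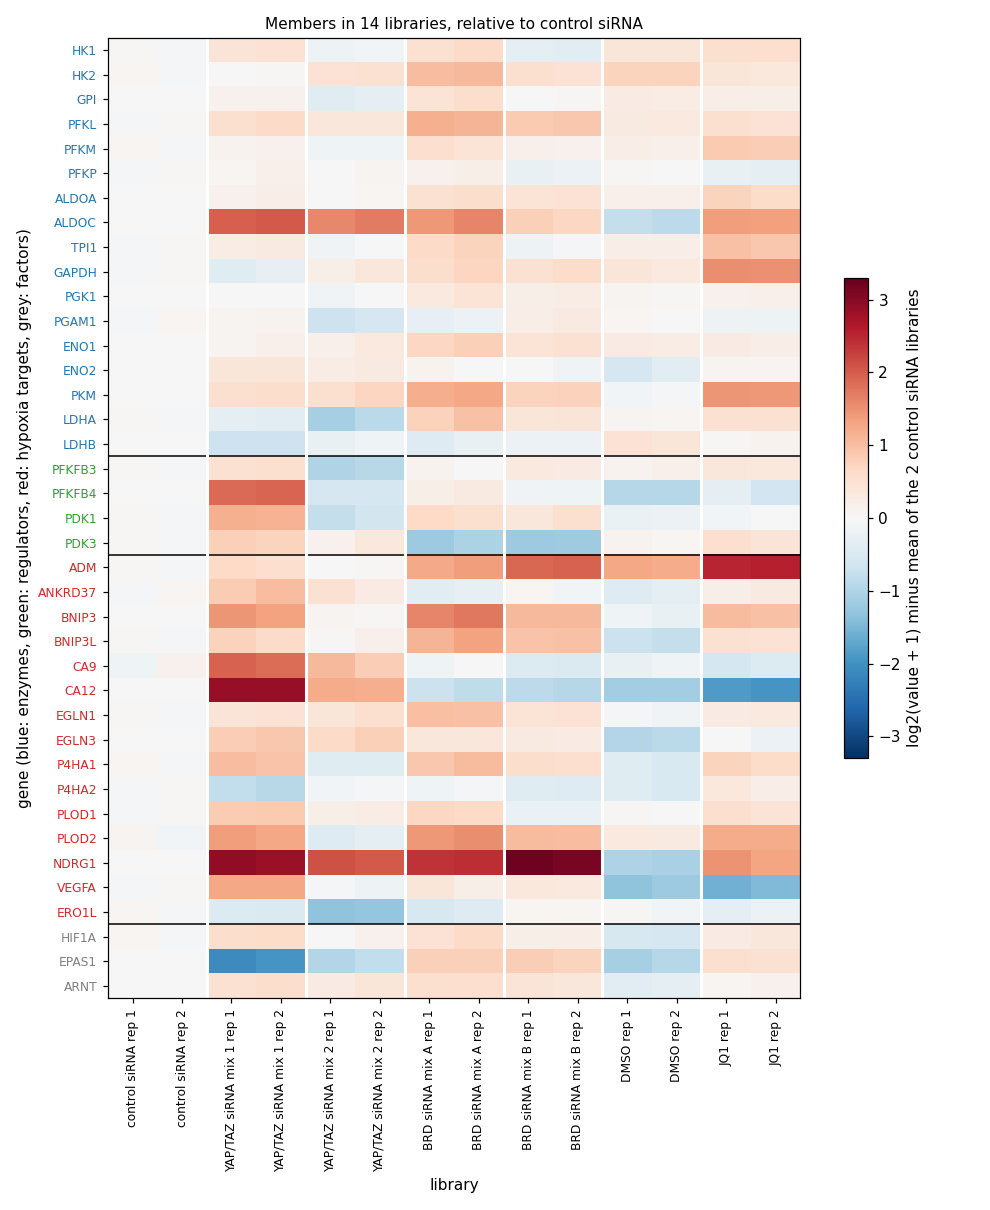
Level of each of the 39 members (rows, coloured by role) in each of the 14 libraries (columns), as log2(value + 1) minus the mean of the 2 control siRNA libraries. The 2 libraries of a group look alike, NDRG1 is above control siRNA in every siRNA and JQ1 library, and the columns of the 2 YAP/TAZ siRNA mixes differ in PFKFB3, PFKFB4, PDK1, P4HA1, PLOD2 and VEGFA.

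Averaged over both mixes, YAP/TAZ siRNA raised most hypoxia targets and left the glycolytic enzymes divided. Of the 15 hypoxia targets 13 rose and 2 fell, with a median log2 fold change of 0.53, and of the 17 enzymes 7 rose, 3 fell and 7 did not pass the test, with a median of 0.11. A gene is called changed where limma's adjusted p, over the 13674 genes tested, is under 0.05. For siRNA averaged over 2 mixes, here and for BRD siRNA, the SE and p rest on the spread between libraries of the same group. The difference between the mixes does not enter them, while an SD with n = 4 includes it. In this comparison 43.1% of all genes were called higher and 35.9% lower, with a median of 0.073. Over all 39 members 25 rose and 7 fell. All 4 treated libraries lay above both controls for 15 members and below both for 5, where 35.6% and 29.1% of all genes did so. The rise of the targets depended on the mix. With mix 2 alone 7 of the 15 targets rose and 3 fell, against 42.7% and 35.7% of all genes. In bulk RNA, fewer cells of a kind and less RNA per cell cannot be told apart.

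Among the factors, EPAS1, the alpha subunit also called HIF-2α, fell most of all members. It was at 38.1 and 39.1 scaled RPM in the control siRNA libraries, 8.21 and 9.20 with mix 1 and 19.4 and 21.8 with mix 2. Every YAP/TAZ siRNA library lay below both control siRNA libraries, and the mean went from 38.6 ± 0.724 (SD, n = 2) to 14.6 ± 6.93 (SD, n = 4), a log2 fold change of -1.45 ± 0.068 (SE) with limma adjusted p = 3.76e-14. The DMSO libraries were at 17.4 and 19.5, and only the mix 1 libraries lay below these as well. HIF1A, the other alpha subunit, rose by 0.33 on the log2 scale (limma adjusted p = 1.95e-05), from 662 and 607 to 953 and 966 with mix 1, while the mix 2 libraries at 634 and 694 overlapped the controls. ARNT, their common partner, rose by 0.44 and its groups did not overlap. The HIF1A rise came with mix 1, since mix 2 alone gave 0.066 with limma adjusted p = 0.358.

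Within the enzymes the rises were led by ALDOC, the brain-type aldolase. ALDOC was at 5.59 and 5.60 scaled RPM with control siRNA, 24.9 and 25.9 with mix 1 and 18.8 and 20.7 with mix 2, with no overlap between groups. Its log2 fold change was 1.83 ± 0.083 (SE) (limma adjusted p = 2.4e-14). ALDOA, the more general aldolase, did not pass the test at 0.11 (limma adjusted p = 0.0664). PKM, a pyruvate kinase gene, was at 2351 and 2415 with control siRNA, 3436 and 3561 with mix 1 and 3464 and 3880 with mix 2, a rise of 0.59 on the log2 scale (limma adjusted p = 7.87e-08). PFKL, a phosphofructokinase subunit, rose by 0.47, and the enolase ENO2 by 0.33; in both, all treated libraries lay above the controls. Smaller rises over both mixes were called for HK2 (0.25), ENO1 (0.19) and HK1 (0.17). With mix 1 alone HK2 was at 0.016 (limma adjusted p = 0.809), and HK1 was called lower with mix 2 alone (-0.13, limma adjusted p = 0.0403), so that its rise averaged opposite mixes. Against DMSO both HK2 (-0.48) and HK1 (-0.23) were called lower. The ENO1 call had a limma adjusted p of 0.0142, and it was lost, at 0.0557 to 0.0673, when control siRNA replicate 1 or 2, mix 1 replicate 2 or mix 2 replicate 2 was left out.

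Both lactate dehydrogenase subunits fell. LDHA, which favours lactate production, was at 1540 and 1479 scaled RPM with control siRNA, 1214 and 1195 with mix 1 and 707 and 813 with mix 2. All 4 treated libraries lay below the controls, with means of 1509 ± 43.1 (SD, n = 2) and 982 ± 260.3 (SD, n = 4) and a log2 fold change of -0.66 ± 0.067 (SE) (limma adjusted p = 1.25e-08). LDHB, the subunit found mainly in oxidative tissue, fell by 0.43 on the log2 scale. PGAM1, phosphoglycerate mutase, was called lower over both mixes (-0.25), but its mix 1 libraries at 603 and 615 lay above the controls at 542 and 585, and its mix 2 libraries were at 353 and 382. GPI, PFKM, PFKP, ALDOA, TPI1, GAPDH and PGK1 did not pass the test, with log2 fold changes between -0.10 and 0.11; GPI, PFKM and GAPDH were called in opposite directions with the 2 mixes. The split of the enzymes depended on the control. Against the DMSO libraries 4 enzymes were higher and 9 lower, while 12 targets were higher and 2 lower; 44.4% of all genes were then called higher and 39.8% lower.

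The regulators are PFKFB3 and PFKFB4, which make the activator of phosphofructokinase, and PDK1 and PDK3, which shut pyruvate dehydrogenase. PFKFB3, PFKFB4 and PDK1 moved in opposite directions with the 2 mixes. PFKFB4 was at 22.8 and 22.99 scaled RPM with control siRNA, 86.6 and 89.5 with mix 1 and 15.2 and 15.2 with mix 2. PDK1 was at 17.6 and 16.7, 40.05 and 39.2 and 9.56 and 11.01 in the same order, and PFKFB3 at 50.4 and 47.9, 70.5 and 71.7 and 24.2 and 25.6. In each, mix 1 lay above both controls and mix 2 below both. PDK3 was above the controls with either mix, by 0.50 on the log2 scale (limma adjusted p = 1.17e-05).

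The hypoxia targets with the largest rises were NDRG1, CA12 and CA9. NDRG1, a stress-induced gene linked to differentiation and to low oxygen, was at 55.05 and 55.02 scaled RPM with control siRNA, 427 and 403 with mix 1 and 240.3 and 226 with mix 2. The means were 55.03 ± 0.0213 (SD, n = 2) and 324 ± 105 (SD, n = 4), a log2 fold change of 2.48 ± 0.054 (SE) with limma adjusted p = 2.91e-19. CA12, a carbonic anhydrase of the cell surface that takes part in pH control, was at 19.4 and 19.1, 147 and 147 and 46.04 and 45.7 in the same order (2.04 ± 0.07 (SE), limma adjusted p = 2.76e-16). Its relative CA9 rose from 0.586 and 0.903 to 5.75 and 5.24 with mix 1 and 2.68 and 2.06 with mix 2, by 1.43 ± 0.12 (SE) on the log2(value + 1) scale (limma adjusted p = 5.67e-10), which understates the change of so low a gene. All 3 were high in every YAP/TAZ siRNA library, and higher with mix 1 than with mix 2.

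EGLN1 and EGLN3, the oxygen-sensing prolyl hydroxylases, rose by 0.45 and 0.78 with no overlap between groups. ANKRD37, an ankyrin repeat gene, rose by 0.66, and PLOD1, a lysyl hydroxylase of collagen, by 0.53, also without overlap. BNIP3, a mitophagy receptor, rose by 0.73 over both mixes, but its mix 2 libraries at 149.6 and 147 lay just above the controls at 144 and 139, and mix 2 alone did not pass the test (0.065, limma adjusted p = 0.323). The targets that fell were ERO1L, an oxidase of the endoplasmic reticulum that helps to form disulfide bonds, and P4HA2, a collagen prolyl hydroxylase. ERO1L was at 183 and 169 with control siRNA, 129 and 127 with mix 1 and 69.2 and 71.5 with mix 2, a log2 fold change of -0.88 ± 0.052 (SE) (limma adjusted p = 1.79e-12). P4HA2 was at 53.7 and 56.6, 30.7 and 28.9 and 51.8 and 53.5 in the same order (-0.47 ± 0.059 (SE), limma adjusted p = 3.73e-07). Its fall came with mix 1, since mix 2 alone gave -0.066 with limma adjusted p = 0.383, and against DMSO it was at -0.017 (limma adjusted p = 0.797).

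With YAP/TAZ siRNA, markers of other cell types also moved. Of 11 leukocyte, fibroblast and endothelial markers 5 were in the table (CD14, LYZ, COL1A1, PDGFRB, PECAM1), and all 5 rose. Their summed level was 16.1 to 20.8 scaled RPM with control siRNA, 71.9 to 73.2 with mix 1 and 57.5 to 62.9 with mix 2, and the defining genes PTPRC, CD3E, DCN and CDH5 were not analysed here. The summed mesenchymal and basal markers went from 6553 to 6585 with control siRNA to 4579 to 4796 with mix 1, and to 6243 to 6520 with mix 2. The mix 2 sum held 2 markers that rose, VIM and MSN, and 3 that fell, CD44, CAV1 and AXL. The 5 luminal markers in the table summed to 329 to 348 with control siRNA, 923 to 1000 with mix 1 and 766 to 792 with mix 2. KRT19 made up most of these sums, at 263.5 and 282, 863.5 and 936, and 690 and 712 in the same order. Over both mixes 3 of the 5 luminal markers rose and 2 did not pass the test, with a median of 0.14. The part of these marker lists in the results for the members was not tested.

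The 2 mixes against YAP and TAZ gave different pictures of these genes. With mix 1 alone 13 targets rose and 2 fell (median 0.94), all 4 regulators rose (median 0.96), and 9 enzymes rose and 3 fell; 40.6% of all genes were called higher and 33.6% lower. With mix 2 alone 7 targets rose and 3 fell (median 0.10), 1 regulator rose and 3 fell (median -0.63), and 7 enzymes rose and 6 fell, against 42.7% higher and 35.7% lower of all genes. Compared directly, 27 of the 39 members were higher with mix 1 than with mix 2 and 5 were lower, where 30.9% and 34.8% of all genes were. The members higher with mix 1 were 9 of 17 enzymes, 4 of 4 regulators, 12 of 15 targets and 2 of 3 factors.

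Several of these genes serve collagen maturation, blood vessel growth and glycolytic control. PLOD2, a lysyl hydroxylase that prepares collagen for cross-linking, was at 110.5 and 96.9 scaled RPM with control siRNA, 272 and 254 with mix 1 and 77.5 and 83.2 with mix 2, a difference between mixes of 1.70 ± 0.064 (SE) on the log2 scale (limma adjusted p = 3.08e-15). P4HA1, a collagen prolyl hydroxylase, was at 98.7 and 91.1, 193 and 181 and 71.2 and 71.7 in the same order (1.38 ± 0.066 (SE), limma adjusted p = 1.81e-13). VEGFA, the main growth factor for blood vessels, was at 128 and 137, 321 and 321 and 128 and 118, so that mix 2 did not pass the test against control siRNA (-0.11, limma adjusted p = 0.158). The largest difference between mixes among the members was that of PFKFB4, at 2.46 ± 0.089 (SE) (limma adjusted p = 1.94e-15). In 9 of the 39 members the mixes were called in opposite directions against control siRNA and differed from each other; this held for 992 of all genes tested, 7.25%. PGAM1 was not among them, because mix 1 alone did not pass the test (0.11).

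**Figure D2:**
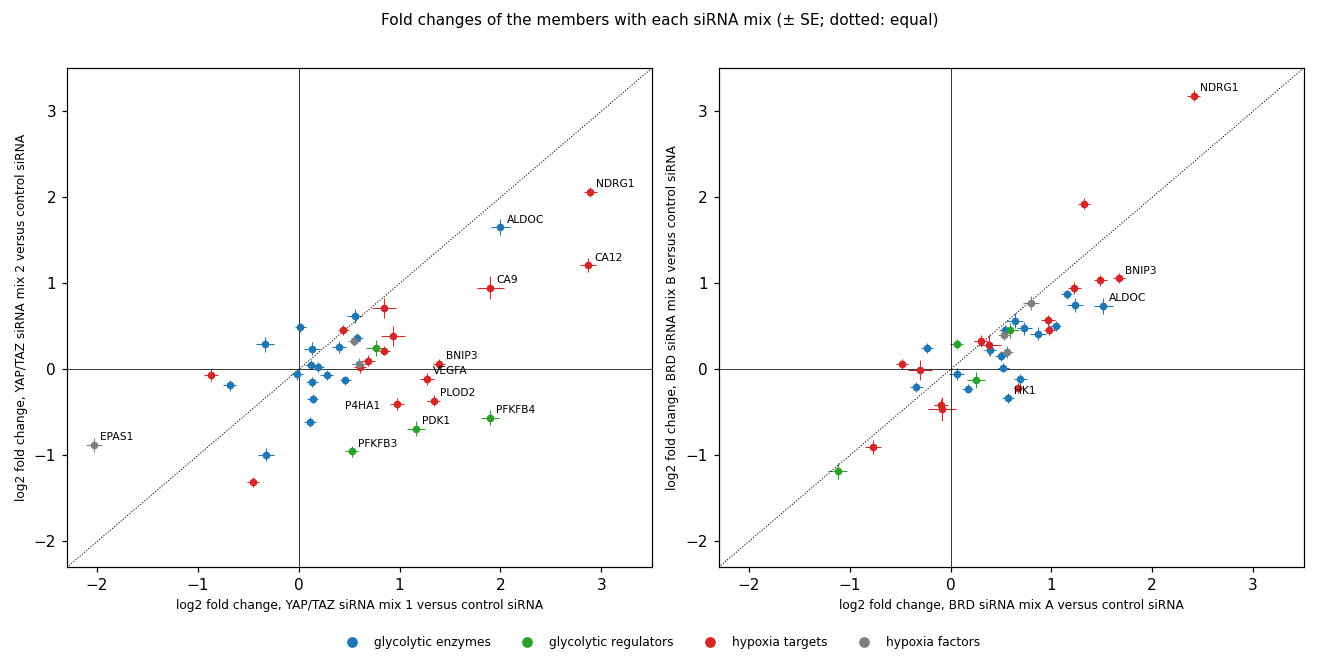
Log2 fold change against control siRNA with the first mix (horizontal axis) and the second mix (vertical axis) for YAP/TAZ siRNA (left) and BRD siRNA (right); points are members coloured by role, bars are ± SE and the dotted line marks equal values. On the left PFKFB4, PDK1, PLOD2 and P4HA1 are above 0 with mix 1 and below 0 with mix 2, and on the right NDRG1 lies above the dotted line and ALDOC below it.

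BRD siRNA raised most members of every role except the regulators. Of the 17 glycolytic enzymes 13 rose, 1 fell and 3 did not pass the test, with a median log2 fold change of 0.33. Of the 15 hypoxia targets 10 rose and 4 fell, also with a median of 0.33, and all 3 factors rose. In this comparison 37.6% of all genes were called higher and 37.6% lower, with a median of -0.0047. Over all 39 members 28 rose and 6 fell. All treated libraries lay above both controls for 23 members and below both for 3, where 32.4% and 32.1% of all genes did so.

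The factors rose together. EPAS1 was at 67.7 and 67.8 scaled RPM with mix A and 68.7 and 64.5 with mix B, against 38.1 and 39.1 with control siRNA. This rise of 0.78 ± 0.068 (SE) on the log2 scale (limma adjusted p = 1.26e-09) had hardly any spread between mixes. HIF1A rose by 0.38 and ARNT by 0.46, both with all 4 libraries above the controls.

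ALDOC and PFKL led the enzymes. ALDOC was at 16.7 and 19.1 with mix A and 10.3 and 9.68 with mix B, against 5.59 and 5.60 with control siRNA (1.13 ± 0.083 (SE), limma adjusted p = 9.21e-11). PFKL was at 61.8 and 65.8 with control siRNA, 146 and 139.8 with mix A and 116 and 118 with mix B, a rise of 1.01 ± 0.049 (SE) (limma adjusted p = 1.2e-13). PKM rose by 0.99, from 2351 and 2415 to 5454 and 5745 with mix A and 3993 and 4021 with mix B. Mix A was the higher mix for all 3 enzymes. HK2, the inducible hexokinase that commits glucose to the pathway, rose by 0.77 against control siRNA, but against DMSO it was at 0.044 (limma adjusted p = 0.41). LDHA rose by 0.64, ENO1 by 0.61, GAPDH by 0.60 and ALDOA by 0.50, each without overlap between groups. PFKM and PGK1 rose by 0.33 and 0.31. TPI1 and GPI were called higher by 0.29 and 0.27, but their groups overlapped. With mix B alone neither passed the test (TPI1 -0.11, GPI 0.021; limma adjusted p = 0.0999 and 0.741), nor did they against DMSO (0.059 and 0.0080; limma adjusted p = 0.313 and 0.883). LDHB was the enzyme that fell, from 661 and 649 to 485 and 553 with mix A and 569 and 568 with mix B (-0.27 ± 0.054 (SE), limma adjusted p = 0.000138). The small rise of HK1 (0.12, limma adjusted p = 0.0342) averaged opposite mixes, with 308 and 336 in mix A and 173 and 170.1 in mix B against 221 and 212 in the controls. PFKP, PGAM1 and ENO2 did not pass the test, but against DMSO ENO2 was called higher (0.46, limma adjusted p = 1.17e-06).

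Among the regulators PDK3 fell and PDK1 rose. PDK3 was at 15.03 and 14.3 scaled RPM with control siRNA, 5.83 and 6.62 with mix A and 5.85 and 5.97 with mix B. The fall, from 14.7 ± 0.496 (SD, n = 2) to 6.07 ± 0.372 (SD, n = 4), was -1.15 ± 0.083 (SE) on the log2 scale (limma adjusted p = 6.56e-11), and it was the largest among the members in this comparison. PDK1 rose by 0.52 with no overlap. PFKFB3 rose by 0.18 (limma adjusted p = 0.00525), a call lost without control siRNA replicate 2 (0.0632), with mix A alone (0.382) and against DMSO (0.504). PFKFB4 did not pass the test, but it was called higher with mix A alone (0.25, limma adjusted p = 0.0156) and against DMSO (1.01, limma adjusted p = 1.18e-10).

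Of the hypoxia targets NDRG1 rose most, as it did with YAP/TAZ siRNA. It was at 55.05 and 55.02 scaled RPM with control siRNA, 291 and 303 with mix A and 522 and 493 with mix B, a log2 fold change of 2.80 ± 0.054 (SE) (limma adjusted p = 1.73e-19). ADM, the vasodilator peptide adrenomedullin, was at 39.8 and 37.6, 93.6 and 103 and 147 and 152 in the same order (1.62 ± 0.053 (SE), limma adjusted p = 2.08e-16). Both were higher with mix B than with mix A. BNIP3 was at 144 and 139, 432 and 475 and 297 and 296 (1.37 ± 0.052 (SE), limma adjusted p = 2.08e-15), and its relative BNIP3L rose by 1.09. PLOD2 was at 110.5 and 96.9, 280.2 and 303 and 214 and 212 (1.26 ± 0.055 (SE), limma adjusted p = 2.07e-14). These mitophagy and collagen genes were instead higher with mix A. P4HA1 rose by 0.77, EGLN1 by 0.72, EGLN3 by 0.33 and VEGFA by 0.32; the EGLN3 call was lost with DESeq2 (adjusted p = 0.0787).

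The targets that fell with BRD siRNA were CA12, CA9, P4HA2 and ERO1L. CA12 was at 19.4 and 19.1 scaled RPM with control siRNA, 11.4 and 10.4 with mix A and 10.1 and 9.63 with mix B (-0.83 ± 0.07 (SE), limma adjusted p = 7.74e-10). P4HA2 and ERO1L were called lower by 0.25 and 0.21 on the log2 scale, and their groups overlapped. CA9 was called lower at -0.27 (limma adjusted p = 0.0441), but at under 1 scaled RPM the call was lost when any of 4 libraries was left out, and without control siRNA replicate 2 the value was -0.14 with an adjusted p of 0.403. Against the DMSO libraries 1 of these 4 targets, ERO1L, was called lower, while CA12 (0.31, limma adjusted p = 0.000426) and P4HA2 (0.20, limma adjusted p = 0.00464) were called higher, with 39.1% of all genes called higher and 39.7% lower.

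The BRD siRNA mixes were also taken one at a time. With mix A alone 14 enzymes rose and 2 fell, and 10 targets rose and 3 fell (37.2% of all genes higher and 36.1% lower). With mix B alone 11 enzymes rose and 3 fell, and 9 targets rose and 4 fell (35.3% and 35.5% of all genes). Directly compared, 22 members were higher with mix A, 6 were lower and 11 did not pass the test, with 25.7% and 24.3% of all genes called higher and lower. The mixes were called in opposite directions against control siRNA for HK1, PFKP, PGAM1 and PLOD1, 4 of 39 members, and for 4.06% of all genes. PLOD1 was at 87.8 and 93.6 with control siRNA, 146 and 145 with mix A and 78.3 and 77.4 with mix B. The 5 markers of leukocytes, fibroblasts and endothelium summed to 13.1 to 15.9 with mix A and 9.55 to 10.9 with mix B, below the control siRNA range. The luminal markers summed to 387 to 390 with mix A and 476 to 513 with mix B, with 2 of 5 higher and 1 lower over both mixes, and the mesenchymal and basal markers to 5866 to 6117 and 7210 to 7493. Of the 6 mesenchymal and basal markers 4 were called higher and 1 lower over both mixes, and 3 higher and 2 lower with mix A alone. The part of these marker lists in the results was not tested.

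**Figure D3:**
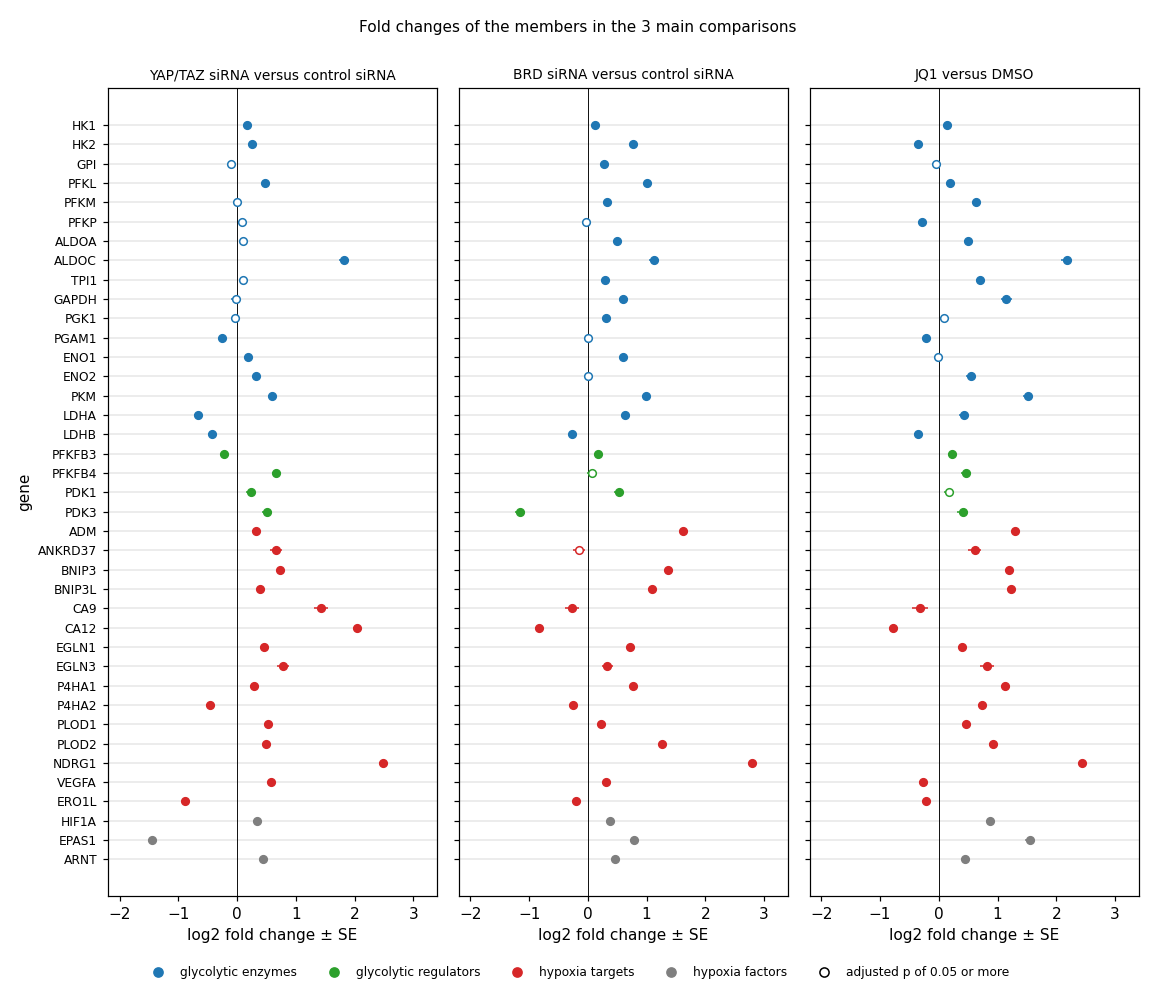
Log2 fold change ± SE of the 39 members, coloured by role, in the 3 main comparisons; open points have a limma adjusted p of 0.05 or more. NDRG1 lies between 2.45 and 2.80 in all 3 panels, EPAS1 is below 0 with YAP/TAZ siRNA and above 0 in the other panels, and CA12 is above 0 with YAP/TAZ siRNA and below 0 in the others (with BRD siRNA it is above 0, at 0.31, when DMSO is the control).

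JQ1 raised 27 members and lowered 8 relative to DMSO. Of the 15 hypoxia targets 11 rose and 4 fell, with a median log2 fold change of 0.74. Of the 17 enzymes 10 rose and 4 fell (median 0.19), of the 4 regulators 3 rose, and all 3 factors rose (median 0.87). In this comparison 37.6% of all genes were called higher and 36.3% lower, with a median of 0.012. Both JQ1 libraries lay above both DMSO libraries for 29 members and below for 9, against 44.5% and 43.4% of all genes.

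EPAS1 rose most among the factors, from 17.4 and 19.5 scaled RPM with DMSO to 56.5 and 54.98 with JQ1. Its log2 fold change was 1.55 ± 0.078 (SE) (limma adjusted p = 2.17e-13). HIF1A went from 437 and 428 to 767 and 817 (0.87 ± 0.066 (SE), limma adjusted p = 1.4e-10), and ARNT rose by 0.44. No JQ1 library overlapped the DMSO libraries in any of these genes.

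The enzymes with the 4 largest rises were ALDOC, PKM, GAPDH and TPI1. ALDOC went from 2.85 and 2.65 scaled RPM with DMSO to 16.1 and 15.8 with JQ1 (2.18 ± 0.095 (SE), limma adjusted p = 2.24e-14). PKM went from 2257 and 2284 to 6568 and 6414, with means of 2271 ± 19.1 (SD, n = 2) and 6491 ± 109 (SD, n = 2) and a log2 fold change of 1.51 ± 0.077 (SE) (limma adjusted p = 2.7e-13). GAPDH, often used as a reference gene, went from 4453 and 4283 to 9827 and 9601 (1.15 ± 0.087 (SE), limma adjusted p = 1.54e-10). TPI1 rose by 0.70, PFKM by 0.64, ENO2 by 0.54, ALDOA by 0.50 and LDHA by 0.42. HK2, PFKP, PGAM1 and LDHB fell. HK2 was at 162 and 162 with DMSO and 129.9 and 124 with JQ1 (-0.35 ± 0.056 (SE), limma adjusted p = 1.11e-05), and LDHB at 907 and 859 and 674 and 704 (-0.36 ± 0.063 (SE), limma adjusted p = 3.14e-05). GPI, PGK1 and ENO1 did not pass the test. HK1 rose by 0.14 with limma adjusted p = 0.025, a call lost, at 0.0677 to 0.103, without any of the 4 libraries.

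Of the 4 regulators 3 rose with JQ1 and none fell, with a median of 0.32. PFKFB4 rose by 0.47, PDK3 by 0.41 and PFKFB3 by 0.23. PDK1 did not pass the test (0.17, limma adjusted p = 0.0809).

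NDRG1 again rose most of the hypoxia targets, from 26.4 and 25.5 scaled RPM with DMSO to 156 and 137 with JQ1 (2.45 ± 0.062 (SE), limma adjusted p = 5.72e-18). ADM went from 95.1 and 91.8 to 227 and 236 (1.30). BNIP3L rose by 1.23, BNIP3 by 1.19 and P4HA1 by 1.13, and PLOD2, EGLN3 and P4HA2 rose by 0.92, 0.82 and 0.74. The 4 that fell were CA12, CA9, VEGFA and ERO1L. CA12 went from 8.17 and 8.23 to 4.57 and 4.21 (-0.77 ± 0.08 (SE), limma adjusted p = 2.44e-08), and VEGFA from 52.2 and 57.7 to 43.5 and 47.3 (-0.27). CA9 went from 0.454 and 0.580 to 0.161 and 0.281 (-0.31 ± 0.14 (SE), limma adjusted p = 0.0447), and ERO1L was called lower at -0.21. Without DMSO replicate 1 or JQ1 replicate 1 2 targets were called lower, since ERO1L then had a limma adjusted p of 0.0686 or 0.052. The CA9 call was lost without any of the 4 libraries (limma adjusted p = 0.0535 to 0.218), and with a pseudocount of 4 (0.145), a filter at 5 (0.057) and upper-quartile scaling (0.0572). Beside these results, the luminal markers summed to 274 to 282 scaled RPM with DMSO and 1800 to 1984 with JQ1. That sum was mostly KRT19, higher by 3.11; EPCAM fell from 18.3 and 18.6 to 6.90 and 6.99 (-1.29, limma adjusted p = 2.14e-10), and of the 5 luminal markers 2 rose, 1 fell and 2 did not pass the test (median 0.14). In the same libraries the 5 leukocyte, fibroblast and endothelial markers summed to 6.03 to 7.57 and 8.26 to 8.50. Their part in the results was not tested.

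**Figure D4:**
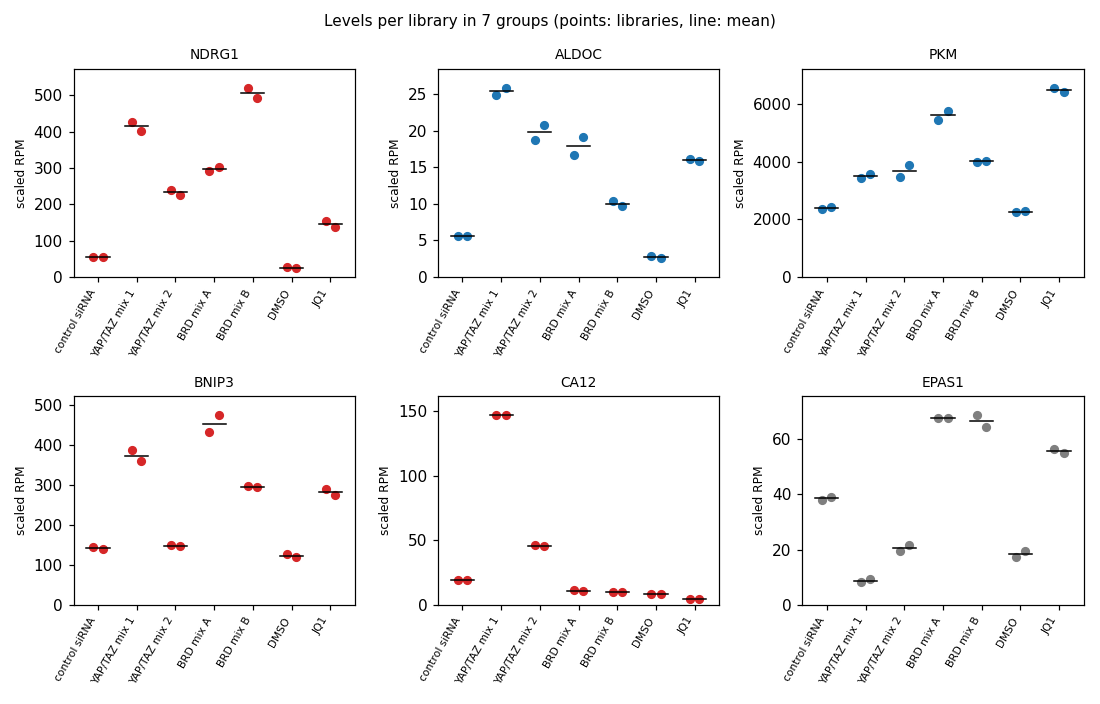
Scaled RPM of NDRG1, ALDOC, PKM, BNIP3, CA12 and EPAS1 in the 14 libraries by group; points are libraries and lines are group means, and every vertical axis starts at 0. DMSO lies below control siRNA for NDRG1, ALDOC, CA12 and EPAS1, and CA12 is at 146.9 in both libraries of YAP/TAZ siRNA mix 1.

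The 2 kinds of control differed in these genes. DMSO libraries had higher levels than control siRNA libraries for 10 of 17 enzymes and lower levels for 2, with 28.7% of all genes called higher and 25.4% lower. For the hypoxia targets the split ran the other way, with 2 higher and 9 lower (median -0.37), and all 3 factors were lower (median -0.55). VEGFA was at 128 and 137 scaled RPM with control siRNA and 52.2 and 57.7 with DMSO (-1.26 ± 0.07 (SE), limma adjusted p = 8.61e-12). CA12 was lower by 1.14 on the log2 scale, NDRG1 by 1.06, EPAS1 by 1.03, PFKFB4 by 0.95 and EGLN3 by 0.92. Higher with DMSO were ADM, at 95.1 and 91.8 against 39.8 and 37.6 (1.25), and HK2, at 162 and 162 against 102 and 93.00 (0.73). The siRNA, the DMSO and any difference in harvest time cannot be told apart here, so siRNA and JQ1 were tested against each other only through the changes from their own controls. The map of all libraries shows levels against control siRNA as a description.

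The change with JQ1 was set against that with BRD siRNA as a difference of fold changes, since each has its own control. For all genes this difference was called higher in 30.2% and lower in 29.9%. Among the enzymes it was higher for 6 and lower for 7 of 17. HK2 differed most, rising with BRD siRNA (0.77) and falling with JQ1 (-0.35), a difference of -1.12 ± 0.075 (SE) (limma adjusted p = 9.11e-11). This difference depends on the controls, since HK2 was higher by 0.73 with DMSO than with control siRNA. PFKL rose less with JQ1 (a difference of -0.82), ENO1 rose with BRD siRNA and did not pass the test with JQ1 (-0.62), and ALDOC (1.05), GAPDH (0.55), ENO2 (0.54) and PKM (0.52) rose more. Of the regulators PDK3 differed most, by 1.56 ± 0.13 (SE) (limma adjusted p = 1.75e-09). Among the 15 targets 5 were higher and 5 lower, with P4HA2 (1.00) and VEGFA (-0.59) at the ends. EPAS1 rose more with JQ1, by 0.77 ± 0.1 (SE) (limma adjusted p = 2.21e-06). Its mean level was not higher with JQ1, at 55.7 scaled RPM against 67.2 with BRD siRNA. The differences of EPAS1, ALDOC and ENO2 also depend on the controls. With DMSO they were lower than with control siRNA by 1.03, 0.81 and 0.45 on the log2 scale. For CA12, BNIP3, BNIP3L and ARNT no difference passed the test, with values of 0.061 ± 0.11 (SE), -0.17 ± 0.079 (SE), 0.14 ± 0.089 (SE) and -0.021 ± 0.078 (SE). These values depend on the controls too, since with DMSO the genes were lower than with control siRNA by 1.14, 0.20, 0.74 and 0.35. Against DMSO, CA12 was called higher with BRD siRNA (0.31) and lower with JQ1 (-0.77). Doses, times and controls of these treatments differ.

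Set against YAP/TAZ siRNA in the same way, JQ1 gave the widest contrast in EPAS1, by 3.00 ± 0.1 (SE) (limma adjusted p = 2.41e-15), and in CA12, by -2.81 ± 0.11 (SE) (limma adjusted p = 8.98e-15). Both genes differed between the controls, lower with DMSO than with control siRNA by 1.03 and 1.14. CA9 followed CA12, at -1.74. P4HA2 (1.21), GAPDH (1.18), LDHA (1.08), ADM (0.98) and PKM (0.93) changed more in the upward direction with JQ1. Over all genes 30.9% were higher and 32.4% lower in this difference; among the members 7 of 17 enzymes were higher and 3 lower, and 7 of 15 targets were higher and 3 lower. NDRG1 did not differ beyond its error (-0.029 ± 0.082 (SE), limma adjusted p = 0.769). That value also depends on the controls, since NDRG1 was lower with DMSO than with control siRNA by 1.06. YAP/TAZ siRNA and BRD siRNA share the control siRNA libraries, so their fold changes are only set side by side: EPAS1 -1.45 and 0.78, LDHA -0.66 and 0.64, CA12 2.04 and -0.83, and PDK3 0.50 and -1.15 for YAP/TAZ siRNA and BRD siRNA respectively.

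Glycolytic enzymes and other hypoxia targets thus gave different counts in the 3 comparisons. With YAP/TAZ siRNA 41.2% of the enzymes and 86.7% of the targets rose, with BRD siRNA 76.5% and 66.7%, and with JQ1 58.8% and 73.3%. Of all genes 43.1%, 37.6% and 37.6% rose, so the share of enzymes rising with YAP/TAZ siRNA was near the background. The share of enzymes falling with YAP/TAZ siRNA was 17.6%, against 35.9% of all genes. With YAP/TAZ siRNA mix 2 alone 46.7% of the targets rose, against 42.7% of all genes. The median log2 fold changes of the enzymes were 0.11, 0.33 and 0.19, and of the targets 0.53, 0.33 and 0.74, with no test of the difference between the lists. As a share of all reads in genes, the 17 enzymes took 1.51% and 1.55% with control siRNA, 1.59% and 1.66% with YAP/TAZ siRNA mix 1 and 1.68% and 1.83% with mix 2. The share was 2.21% and 2.30% with BRD siRNA mix A, 1.90% and 1.96% with mix B, 1.60% and 1.60% with DMSO, and 2.53% and 2.49% with JQ1. It was therefore higher in every treated library than in its controls. GAPDH, PKM and ENO1 made up most of this share, from 0.85% of reads in the first control siRNA library to 1.77% in the first JQ1 library. Several of these enzymes, GAPDH, PKM, LDHA and PGK1 among them, have near-identical pseudogene copies, and the handling of reads shared with the copies is not known here, so their levels are uncertain to that extent.

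**Figure D5:**
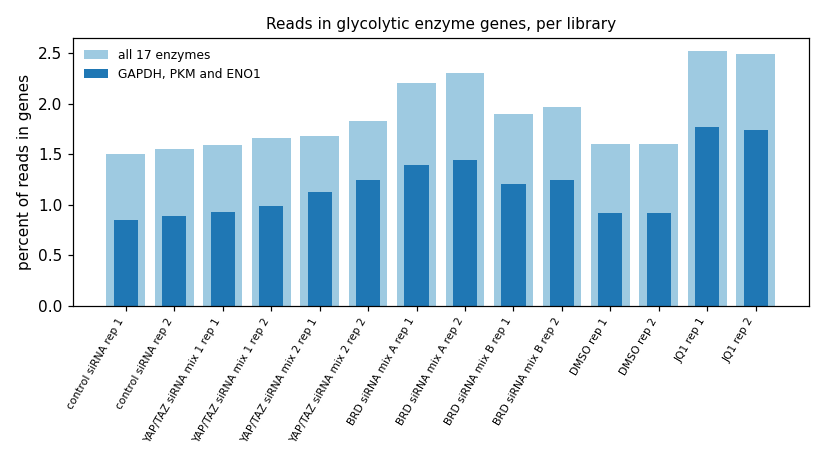
Percent of all reads in genes that fell in the 17 glycolytic enzymes (wide bars) and in GAPDH, PKM and ENO1 alone (narrow bars), per library; the axis starts at 0. The share is 1.51% to 1.55% with control siRNA, 1.90% to 2.30% with BRD siRNA and 2.49% to 2.53% with JQ1.

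Genes of the wider pathway that are not members were counted from 5 lists, of which 65 of 71 genes were tested. With YAP/TAZ siRNA 37 rose and 20 fell, with BRD siRNA 34 rose and 18 fell, and with JQ1 34 rose and 17 fell, with medians of 0.25, 0.23 and 0.21. This was 56.9%, 52.3% and 52.3% rising and 30.8%, 27.7% and 26.2% falling, where 43.1%, 37.6% and 37.6% of all genes rose and 35.9%, 37.6% and 36.3% fell. Other genes induced by low oxygen gave the largest group, with 19, 18 and 16 of 28 rising and 5 falling in each comparison. CCNG2, an unusual cyclin, rose by 1.52 with YAP/TAZ siRNA, 1.18 with BRD siRNA and 1.60 with JQ1. DDIT4, an inhibitor of mTOR signalling, went from 23.02 ± 4.00 (SD, n = 2) with DMSO to 244 ± 2.23 (SD, n = 2) scaled RPM with JQ1, a rise of 3.36 (limma adjusted p = 2.13e-18), and rose by 1.77 with YAP/TAZ siRNA. The histone demethylase KDM3A rose by 1.21 and the collagen oxidase LOXL2 by 1.58 with BRD siRNA. Of the oxygen sensing and HIF control genes 6, 5 and 5 of 11 rose and 4, 3 and 5 fell. CITED2, which competes with HIF for its coactivators, rose by 1.83 with JQ1.

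In the branches off glycolysis, pentose phosphate genes rose in 4, 5 and 4 of 7 cases and fell in 1, 2 and 2. RPIA, the ribose phosphate isomerase, fell from 27.4 and 31.3 with control siRNA to 11.4 and 11.5 with YAP/TAZ siRNA mix 1 and 2.34 and 2.16 with mix 2 (-2.26, limma adjusted p = 5.69e-16). The pyruvate dehydrogenase and gluconeogenesis genes rose in 5, 4 and 6 of 14 cases and fell in 8, 6 and 4. This was 35.7%, 28.6% and 42.9% rising, where 43.1%, 37.6% and 37.6% of all genes rose. The falling shares were 57.1%, 42.9% and 28.6%, where 35.9%, 37.6% and 36.3% of all genes fell. FBP1, which runs the phosphofructokinase step backwards in gluconeogenesis, fell by 1.84 with BRD siRNA and by 2.06 with JQ1, from 74.2 and 75.03 with DMSO to 17.7 and 16.6. PDK4, another pyruvate dehydrogenase kinase, rose by 1.98 with YAP/TAZ siRNA. Of the glucose and lactate transport genes 3, 2 and 3 of 5 rose and 2, 2 and 1 fell.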

How the data were processed

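RNA was sequenced from 14 libraries of MDA-MB-231 cells, which the sample titles place in 7 groups of 2. CASAVA 1.8.4, TopHat2 2.0.5, HTSeq 0.6.0, R 3.0.0, edgeR and the build hg19 appear in the submitters' processing notes; strand setting and gene annotation do not. The deposited signal is named CPM, but its column sums (903627 to 1098052) differ, so it was read as reads relative to an adjusted library size (scaled RPM) and not as the CPM first assumed. All values (100%) were whole multiples of 1 read within 0.01, which gave depths of 15741695 to 37311326 reads, with 0 columns of other samples.

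Of 13734 genes, the 13674 that reached 1 in 2 or more libraries were tested as log2(value + 1). limma 3.58.1 with a mean-variance trend (R 4.3.3) was fitted to the 14 libraries with 7 group means (7 residual and 13.2 prior degrees of freedom, median residual SD 0.0852), two-sided, with Benjamini-Hochberg adjustment and a threshold of 0.05; the scripts were tested on simulated data. Alternatives were edgeR 4.0.16 and DESeq2 1.42.0 on the recovered reads, other scalings, pseudocounts and filters, DMSO as control, each mix alone, a replicate block, and each library left out.

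Members and lists were chosen with earlier results of these data known, so no p-value was adjusted over a list. Full statistics went to the 4 largest rises and falls among called members whose groups did not overlap, and, in the pathway lists, to up to 4 genes per comparison with the largest absolute moderated statistic; any member may be named, and the targeted genes check the labels. Some genes are not reported here.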

Additional observations from a re-analysis of the deposited data

Results flagged for a closer look

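Some members were called in opposite directions against control siRNA with the 2 mixes of siRNA against the same target, and the mixes differed from each other by limma's test. For YAP/TAZ siRNA these were 9 of 39 members, and 7.25% of all genes. The difference, mix 1 minus mix 2 on the log2 scale, was 2.46 for PFKFB4, 1.85 for PDK1, 1.70 for PLOD2, 1.48 for PFKFB3 and 1.38 for P4HA1. It was 0.59 for HK1, 0.48 for GPI, 0.28 for PFKM and, in the other direction, -0.63 for GAPDH. In 8 of these 9 genes, all but GAPDH, mix 1 was the higher mix. For BRD siRNA there were 4 members, against 4.06% of all genes, with differences of mix A minus mix B of 0.90 for HK1, 0.89 for PLOD1, 0.39 for PFKP and -0.48 for PGAM1. HK1 was in both sets.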

How the results depend on the processing

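Of 117 member results (39 genes in 3 comparisons), all kept their direction and their side of the threshold under edgeR, with no filter, with a pseudocount of 0.25 and with the replicate block. DESeq2 turned 2, lost 5 calls and gained 1. Upper-quartile scaling turned 6, lost 2 and gained 5, and median-ratio scaling turned 2, lost 3 and gained 1. Median-ratio scaling lost ENO1 with YAP/TAZ siRNA and HK1 with BRD siRNA and JQ1 (limma adjusted p = 0.0672, 0.0709 and 0.111). Counts over all genes stayed within 1.5 times under every alternative. Over 21 pairs of groups the correlation of replicate deviations ranged from -0.37 to 0.25 (median -0.011), with 7 over 0.1. These values cannot settle whether replicate numbers pair the libraries. With the replicate block, 7 enzymes rose and 3 fell and 13 targets rose and 2 fell with YAP/TAZ siRNA, as without it.

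The DMSO libraries as control gave 4 enzymes higher and 9 lower for YAP/TAZ siRNA (7 and 3 with control siRNA), and 2 enzymes and 1 target lower for BRD siRNA (1 and 4). Log2 fold changes that turned were HK1 -0.23, HK2 -0.48, ALDOA -0.06, TPI1 -0.12, ENO1 -0.061 and ADM -0.94 for YAP/TAZ siRNA, and HK1 -0.28, PGAM1 -0.034, ANKRD37 0.22, CA12 0.31 and P4HA2 0.20 for BRD siRNA. With mix 1 alone GPI (0.14), PFKM (0.13), PGAM1 (0.11) and PFKFB3 (0.52) turned, and with mix A alone PFKP (0.17) and PGAM1 (-0.23), with 2 enzymes lower. With mix 2 alone 6 enzymes were lower and 7 targets higher (13 over both mixes), and HK1 (-0.13), TPI1 (-0.065), GAPDH (0.29), PFKFB4 (-0.56), PDK1 (-0.69), P4HA1 (-0.40), PLOD2 (-0.36) and VEGFA (-0.11) turned. With mix B alone 3 enzymes were lower, and HK1 (-0.34), TPI1 (-0.11), ENO2 (-0.052), PFKFB4 (-0.12), PLOD1 (-0.22) and ERO1L (0.059) turned.

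Scaling turned only genes that did not pass the test: PGAM1 -0.0038 and ENO2 -0.0091 (median-ratio scaling), -0.032 and -0.037 (upper-quartile scaling) and -0.0044 and -0.0090 (DESeq2) for BRD siRNA, and, with upper-quartile scaling, PFKM 0.067, GAPDH 0.048 and PGK1 0.036 for YAP/TAZ siRNA and ENO1 0.034 for JQ1. Upper-quartile scaling moved the median of all genes for YAP/TAZ siRNA from 0.073 to 0.136. With each library left out in turn, targets lower with JQ1 numbered 2 to 3 (4 with all libraries). The values that turned sign in this way, none past the threshold, ranged from -0.062 to 0.055 for PFKM and -0.067 to 0.020 for GAPDH with YAP/TAZ siRNA. They ranged from -0.060 to 0.0042 for PFKP, -0.046 to 0.064 for PGAM1 and -0.030 to 0.037 for ENO2 with BRD siRNA, and from -0.037 to 0.014 for ENO1 with JQ1. The cause of these changes was not tested. With 2 libraries per group the spread is borrowed from all groups, and depth limits CA9 most, at 4 to 142 reads.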
